A study of Mus musculus with 12 samples.

Results

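The RXR sites found after GW3965 were compared directly with those found after LG268 in mouse embryonic stem (ES) cells. RXR, the retinoid X receptor, was mapped by chromatin immunoprecipitation and sequencing (ChIP-seq), and the authors deposited 1 list of called peaks per library. The GW3965 list held 940 peaks and the LG268 list 2089 peaks, out of 10124 RXR peaks and 76731 peaks of any kind in the 12 libraries of the series. Overlapping peaks were merged, and an overlap of at least 1 bp made a region shared. This gave 2731 regions, of which 642 had a peak with GW3965 only, 1793 with LG268 only and 296 with both ligands. Each shared region was also ranked by its score among the 296 shared regions, once with each ligand.

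The ES libraries compared here came from wild type E14 ES cells, an established line. The cells were grown without feeder cells on gelatin and with leukemia inhibitory factor (LIF), which keeps ES cells undifferentiated. RXR libraries from day 8 and day 16 of neural differentiation were also used, for the closing observations and the set of all genes. The GW3965 cells received 1 µM GW3965 for 24 h, the LG268 cells 1 µM LG268 for 24 h and the RA cells 1 µM retinoic acid (RA) for 24 h. The control is labelled CTRL, and the treatment protocol names dimethylsulfoxide as the vehicle. The histone modification H3K27ac, which marks promoters and enhancers in use, was mapped under the same 4 conditions. Each condition had 1 library per antibody, so no test between ligands was possible. The files hold no read totals. Sequencing depth is therefore unknown, the number of peaks depends on it, and the exact (Clopper-Pearson) 95% intervals below cover counting error only. A difference in binding and a difference in depth or immunoprecipitation cannot be told apart. The GW3965 RXR list stood apart from the other ES lists in its transposon content and, as given further on, at pluripotency genes. Of its peaks, 16.5% lay in long terminal repeat (LTR) elements, against 2.63% with LG268, 2.79% with RA and 2.48% in the control. Telomere-type repeats made up 8 of the 10 highest GW3965 peaks and all 10 of the highest LG268 peaks, so most results below are also given outside repeats.

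RXR binds DNA as the partner of other nuclear receptors, among them the liver X receptors (LXR), the retinoic acid receptors (RAR) and the peroxisome proliferator-activated receptors (PPAR). GW3965 is an agonist of LXR, and LG268 is an agonist of RXR itself, so the 2 compounds address different partners of the LXR and RXR heterodimer. LXR and PPAR heterodimers can respond to a ligand of either partner, whereas RAR heterodimers respond mainly to a RAR ligand. The heterodimers bind direct repeats (DR) of a hexamer close to AGGTCA, and the number of bases between the hexamers differs by partner. A spacing of 4 (DR4) is typical for LXR, of 1 (DR1) for PPAR and of 5 (DR5) for RAR.

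The promoters of 5 genes are shown because each holds a direct repeat inside a shared RXR peak. Fasn (fatty acid synthase), Srebf1 (the lipogenic transcription factor SREBP-1) and Abca1 (a sterol exporter) are LXR targets. Acsl3 (an acyl-CoA synthetase) was chosen after its values were seen, and Rarb (retinoic acid receptor beta) is a RAR target. The sequences are RefSeq's for GRCm38.p6, read 5′ to 3′ on the strand of the gene and limited to bases before the transcription start site (TSS). Capitals mark the direct repeats. They lie at chr11:120824727-120824797 on the minus strand (Fasn), chr11:60210608-60210683 on the minus strand (Srebf1), chr4:53159917-53159992 on the minus strand (Abca1), chr1:78657683-78657758 on the plus strand (Acsl3) and chr14:16575483-16575589 on the minus strand (Rarb).
Fasn: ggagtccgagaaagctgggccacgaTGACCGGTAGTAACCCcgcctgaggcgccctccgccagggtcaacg
Srebf1: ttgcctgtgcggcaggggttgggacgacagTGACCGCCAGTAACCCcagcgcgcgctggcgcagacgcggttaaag
Abca1: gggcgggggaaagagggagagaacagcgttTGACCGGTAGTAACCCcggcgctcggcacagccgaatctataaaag
Acsl3: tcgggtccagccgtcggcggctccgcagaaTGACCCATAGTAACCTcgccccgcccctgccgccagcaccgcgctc
Rarb: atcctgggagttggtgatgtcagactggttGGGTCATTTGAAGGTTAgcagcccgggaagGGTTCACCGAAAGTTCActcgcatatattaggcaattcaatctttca

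The capitals in the first 4 promoters are a DR4 read on the opposite strand, with 3 mismatches to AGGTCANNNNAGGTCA in Fasn, Srebf1 and Abca1 and 2 in Acsl3. The 16 bases are the same in Fasn and Abca1, and among the 32851 RefSeq promoter windows of 300 bases only these 2 windows hold them on either strand. The exact 16 bases of Srebf1 and of Acsl3 occur in 1 window each. A DR4 with at most 3 mismatches on either strand is itself common, since 21.9% of all promoter windows hold one. The Rarb promoter holds 2 DR5 matches, with 2 and 3 mismatches to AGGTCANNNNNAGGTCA, and 21.7% of all windows hold a DR5 at that limit. The second of them is the site long known as the retinoic acid response element of this gene. All of these matches lay inside the shared RXR peaks. The scores of those peaks with GW3965 were 44.4 at Fasn, 33.5 at Srebf1, 11.2 at Abca1, 18.0 at Acsl3 and 9.96 at Rarb. With LG268 they were 75.4 at Fasn, 70.1 at Srebf1, 31.8 at Abca1, 49.9 at Acsl3 and 37.5 at Rarb. The score is the authors' value per peak, its scale between libraries is not stated, and it is read here by rank within a list.

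Over all promoter windows that a peak overlapped, a DR1, DR4 or DR5 with at most 2 mismatches was present in 8 of 25 windows of GW3965-only regions (32.0%, 95% interval 14.9 to 53.5), in 61 of 391 windows of LG268-only regions (15.6%, 12.1 to 19.6) and in 11 of 57 windows of shared regions (19.3%, 10.0 to 31.9). Among all 32851 windows the share was 8.91%. At 3 mismatches, the limit of most printed sites, the shares were 68.0% of GW3965-only, 54.2% of LG268-only and 63.2% of shared windows, against 49.3% of all windows. By single spacing, and again with at most 2 mismatches, 3.05% of all windows held a DR0, 3.86% a DR1 and 2.99% a DR2. A DR3 was held by 3.06%, a DR4 by 3.02% and a DR5 by 2.79%. At this limit of 2 mismatches, 5 of 57 windows of shared regions held a DR1, 2 a DR4 and 5 a DR5. In those of GW3965-only regions 4 of 25 held a DR1, 3 a DR4 and 2 a DR5, and in those of LG268-only regions 27, 23 and 18 of 391. Matches of different spacing can overlap in a window, and a match describes the letters only.

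The 2 RXR lists overlapped in part. Of the 940 GW3965 peaks, 298 had an LG268 peak (31.7%, 28.7 to 34.8), and of the 2089 LG268 peaks, 296 had a GW3965 peak (14.2%, 12.7 to 15.7). The regions of a single list seldom lay close to a called peak of the other list. The median distance to the nearest peak of the other list was 251 kb for GW3965-only regions and 630 kb for LG268-only regions, and 31 of 642 and 44 of 1793 regions lay within 10 kb of one (4.83% and 2.45%). These values depend on the length of the other list, 2089 and 940 peaks, so the 2 classes cannot be compared by them. Called peaks do not show signal that fell short of a call. Repeats raise the overlap. Simple repeats, satellites, low-complexity and rRNA elements and the mitochondrial genome held 88 GW3965 peaks and 173 LG268 peaks, and 77 of the 88 (87.5%) and 89 of the 173 (51.4%) overlapped the other list. Outside repeats 221 of 852 GW3965 peaks (25.9%, 23.0 to 29.0) and 207 of 1916 LG268 peaks (10.8%, 9.45 to 12.3) did so. The telomere-type repeats (TTAGGG)n and (CCCTAA)n accounted for 0 of 642 GW3965-only regions, which allows a share of up to 0.467% at a floor of 3 counts (exact upper limit 0.573%), for 59 LG268-only regions and for 58 shared regions.

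The strongest LG268 sites were nearly all GW3965 sites as well, and the reverse did not hold to the same degree. Outside repeats, 26 of 63 GW3965 peaks of rank 1 to 100 in their list had an LG268 peak (41.3%, 29.0 to 54.4), and 29 of 33 LG268 peaks of rank 1 to 100 had a GW3965 peak (87.9%, 71.8 to 96.6). Down the GW3965 list the share fell slowly, to 32.3% at rank 101 to 250, 25% at rank 251 to 500 and 22.3% at rank 501 to 940. Down the LG268 list it fell to 36.6% at rank 101 to 250, 21.3% at rank 251 to 500, 9.77% at rank 501 to 1000 and 4.28% at rank 1001 to 2089. The lists differ in length, so equal ranks do not stand for equal binding.

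**Figure D1:**
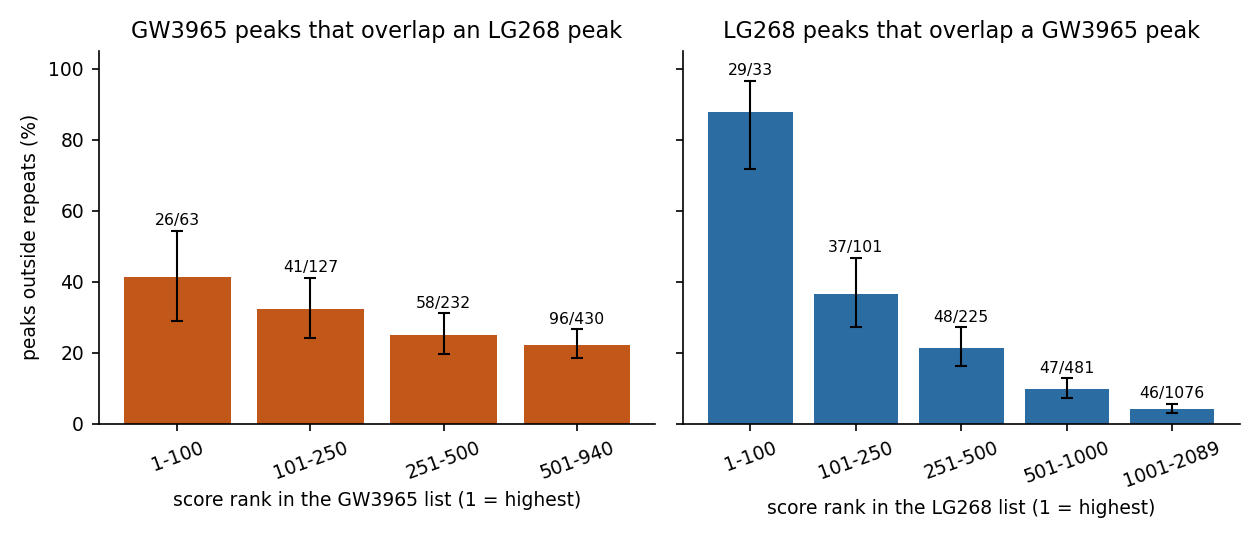
Share of RXR peaks outside repeats that overlap a peak of the other ligand's list, by score rank in their own list (left, GW3965 peaks; right, LG268 peaks). Bars are percentages, lines the exact 95% intervals, and the fractions give the peaks behind each bar; 26 of 63 GW3965 peaks and 29 of 33 LG268 peaks of rank 1 to 100 are shared.

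By the mean of both ranks the 8 highest shared regions were telomere-type repeats. Outside repeats, the 10 highest were nearest to Scd3, Scd2, Fasn, Srebf1, Elovl5, Cpt1a, Abcg1, Scd1, Wnt10a and 4930522O17Rik. The top region lay between genes near Scd3, a stearoyl-CoA desaturase gene (chromosome 19, 44248093 to 44248546, mm10, at 45012 bp from the TSS), and scored 53.6 with GW3965 and 103.7 with LG268. Scd2, of the same family, followed with 39.7 with GW3965 and 95.4 with LG268 (chromosome 19, 44284051 to 44284530, 9435 bp upstream). Fasn carried its shared peak in the promoter (chromosome 11, 120824541 to 120825003). Both lists thus placed the desaturase and fatty acid synthase regions near the top, at ranks 6, 14 and 12 of 940 with GW3965 and 13, 15 and 21 of 2089 with LG268.

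The Srebf1 region lay in intron 1 of 18 of the annotated transcript (chromosome 11, 60210471 to 60210862, 9930 bp from the assigned TSS), over a further Srebf1 start site in RefSeq whose promoter is printed above. Elovl5, a fatty acid elongase gene, had a region 6683 bp upstream with scores of 21.7 with GW3965 and 77.1 with LG268 (chromosome 9, 77910478 to 77910986). Abcg1, a sterol exporter gene, had one in intron 2 of 14 with 31.1 with GW3965 and 52.2 with LG268 (chromosome 17, 31073326 to 31073707). Scd1 had one at a distance of 19010 bp, scored 30.9 with GW3965 and 52.7 with LG268 (chromosome 19, 44388485 to 44388972). Cpt1a, which encodes the carnitine palmitoyltransferase that admits fatty acids to mitochondrial oxidation, had one in intron 1 of 18 with 20.3 with GW3965 and 59.6 with LG268 (chromosome 19, 3325229 to 3325638). All 10 regions also carried an RXR peak with RA and in the control. All 10 lay in an H3K27ac peak with GW3965 and 5 of them in one with LG268. The other 5, at Scd2, Srebf1, Abcg1, Scd1 and 4930522O17Rik, had none in the LG268 H3K27ac list, which is the shorter one (17759 H3K27ac peaks with GW3965 and 12472 with LG268).

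The score order of the shared regions differed between ligands. Over all 296 shared regions Spearman's rho between the ranks was 0.61, and over the 203 outside repeats it was 0.38, where each point is 1 region in the same 2 libraries. The median absolute rank change was 40.8 places. Of the 296 regions, 140 were placed higher with GW3965 (47.3%), 153 were placed higher with LG268 and 3 were tied. When each rank was taken as a percentile of its whole list instead, 18.9% were placed higher with GW3965. Shared regions had a median score of 7.52 in the GW3965 list, where the median of all peaks was 6.50, and of 16.6 in the LG268 list, where it was 6.82. Telomere-type repeats were among those placed higher with LG268, with 12 of 58 placed higher with GW3965.

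Regions that moved up with GW3965 and regions that moved up with LG268 differed in their other RXR peaks. The 8 largest moves towards GW3965 outside repeats were at Stoml1, Nucks1, Frem2, Tns3, Tle4, Brwd1, Slain2 and Cep68, and 3 of these 8 regions had an RXR peak with RA and 1 in the control. Stoml1 led, at rank 36.5 with GW3965 and rank 276 with LG268 (chromosome 9, 58279358 to 58279680, intergenic, in an MLTR25A element). The 8 largest moves towards LG268 were at Chd3, Igsf9b, Cdk5rap3, Angptl4, Acaa2, Gins2, Rasl10b and Cyp26b1, and all 8 had a peak with RA and in the control. Over all 203 shared regions outside repeats, the 64 without a control peak had a median change of -32 places (42 placed higher with GW3965), and the 139 with one had a median of -2 (71 placed higher with GW3965). A negative change means a higher place with GW3965. Among the 24 with neither a control nor an RA peak, 18 were placed higher with GW3965 and the median was -43.5.

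Of the 4 PPAR-list and 3 RAR-list shared regions, 3 lost many places with GW3965, and others hardly moved or moved the other way. Angptl4, which encodes an inhibitor of lipoprotein lipase, held rank 253 of 296 with GW3965 and rank 80 with LG268 (chromosome 17, 33779192 to 33779745, intron 3 of 6, scores 4.54 with GW3965 and 33.5 with LG268). Acaa2, a mitochondrial thiolase of fatty acid oxidation, held rank 267.5 with GW3965 and 97 with LG268 at its promoter (chromosome 18, 74778926 to 74779331). Cyp26b1, an enzyme that degrades RA, held rank 270.5 with GW3965 and 129 with LG268 (chromosome 6, 84640558 to 84640989, 46962 bp upstream). In whole-list percentiles, where 0 is the top, they stood at 78.6, 84.5 and 85.3 with GW3965 and at 4.21, 5.60 and 9.29 with LG268.

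Rarb held rank 101 with GW3965 and 74 with LG268. Cpt1a (31 with GW3965, 30 with LG268) and Slc25a20, the mitochondrial acylcarnitine carrier (59 with GW3965, 68 with LG268), hardly moved. Of 10 shared regions at LXR targets, 9 were placed higher with GW3965, with a median change of -8 places. That count depends on the scale: it was 5 of 10 when ranks were taken among the 203 regions outside repeats and 1 of 10 by whole-list percentile. Of the 10, the 7 at Scd3, Scd2, Fasn, Srebf1, Elovl5, Abcg1 and Scd1 lay at rank 42 or above with both ligands, and the 3 others were the 2 at Abca1 and a second one at Scd2. The 4 PPAR-list regions gave 1 placed higher with GW3965, and 0 under both other scales. The 3 RAR-list regions gave 1 placed higher with GW3965, by a change of -59 places, and 1 under both other scales.

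**Figure D2:**
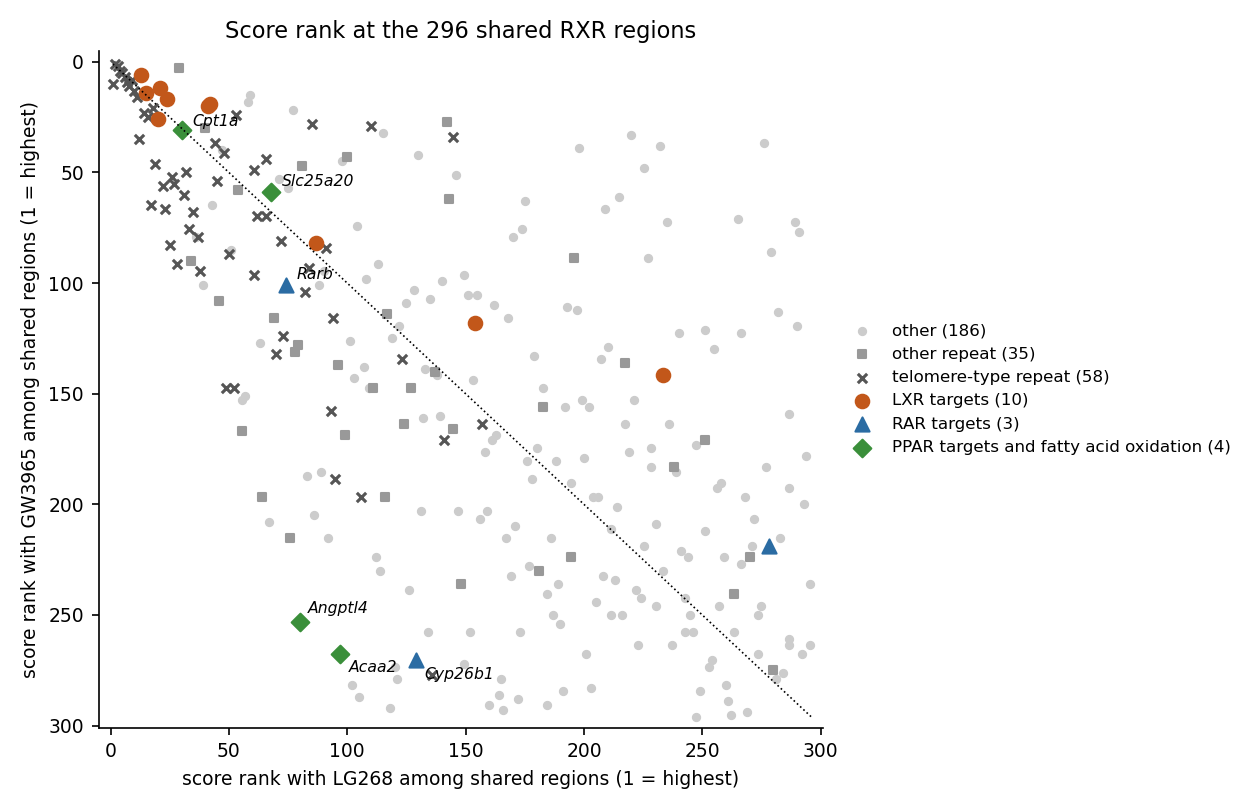
Score rank at the 296 shared RXR regions with GW3965 (vertical axis) against LG268 (horizontal axis), where rank 1 is the highest score and the dotted line marks equal ranks. Each point is 1 region; 7 of the 10 LXR target regions (large circles) lie at rank 42 or above with both ligands, while Angptl4, Acaa2 and Cyp26b1 lie far below the line, at ranks 253, 267.5 and 270.5 with GW3965.

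The 3 classes of region differed in where they lay. Within 1 kb of a TSS lay 35 of 642 GW3965-only regions (5.45%, 3.83 to 7.5), 527 of 1793 LG268-only regions (29.4%, 27.3 to 31.6) and 63 of 296 shared regions (21.3%, 16.8 to 26.4; 31.0% outside repeats). The median distance to the nearest TSS was 21926 bp for GW3965-only, 13416 bp for LG268-only and 20002 bp for shared regions. By the deposited annotation, 53.6% of GW3965-only regions were intergenic and 40.7% intronic, against 36.7% and 36.6% of LG268-only regions. The detailed annotation gives each peak 1 label, and that label was a CpG island at 4 GW3965-only, 114 LG268-only and 22 shared regions (0.623%, 6.36% and 7.43%). Regions in an island but under another label, such as a promoter, are not in these counts.

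GW3965-only regions were seldom found in any other RXR list, and LG268-only regions often were. An RXR peak with RA was present at 33 of 642 GW3965-only regions (5.14%, 3.56 to 7.14), at 877 of 1793 LG268-only regions (48.9%, 46.6 to 51.3) and at 261 of 296 shared regions (88.2%, 83.9 to 91.6). An RXR peak in the control was present at 17 GW3965-only (2.65%, 1.55 to 4.21), 557 LG268-only (31.1%, 28.9 to 33.3) and 229 shared regions (77.4%, 72.2 to 82.0). Neither was present at 599 GW3965-only (93.3%), 811 LG268-only (45.2%) and 24 shared regions (8.11%). With the LG268 list limited to its 940 highest peaks, control peaks were at 5.76% of GW3965-only, 52.4% of LG268-only and 84.4% of shared regions, so the order of the 3 classes did not change.

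H3K27ac followed the same order. A peak of the GW3965 H3K27ac list covered 25 of 642 GW3965-only regions (3.89%, 2.54 to 5.69), 511 of 1793 LG268-only regions (28.5%, 26.4 to 30.7) and 146 of 296 shared regions (49.3%, 43.5 to 55.2). In the LG268 H3K27ac list the numbers were 15 (2.34%), 387 (21.6%) and 126 (42.6%). Coverage of the LG268-only regions followed the length of the H3K27ac list. It was 30.8% in the control list (21418 peaks) and 28.5% in the GW3965 list (17759 peaks). In the RA list (14958 peaks) it was 26.2%, and in the LG268 list (12472 peaks) 21.6%. With the GW3965 H3K27ac list cut to the length of the LG268 one, it covered 23.6% of LG268-only regions, against 21.6% in the LG268 list. Acetylation called with one ligand and not the other was found at 12 GW3965-only regions for GW3965 and at 2 for LG268. At LG268-only regions it was found 161 times for GW3965 and 37 times for LG268. These counts come from the full H3K27ac lists, which differ in length.

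Promoters carried most of the acetylated single-list regions. Of regions within 1 kb of a TSS, 16 of 35 GW3965-only (45.7%, 28.8 to 63.4), 350 of 527 LG268-only (66.4%, 62.2 to 70.4) and 44 of 63 shared regions (69.8%, 57.0 to 80.8) lay in a GW3965 H3K27ac peak. Of all 14490 genes, 66.5% had such a peak within 1 kb of the TSS, a measure that needs no overlap with an RXR region. The LG268-only and shared shares at promoters were thus near that of genes in general. Farther from a TSS the shares were 9 of 607 (1.48%), 161 of 1266 (12.7%) and 102 of 233 (43.8%). Distal shared regions outside repeats and LTR elements gave 34 of 128 (26.6%, 19.1 to 35.1), against 8 of 455 GW3965-only (1.76%) and 140 of 1137 LG268-only regions (12.3%) of the same kind.

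**Figure D3:**
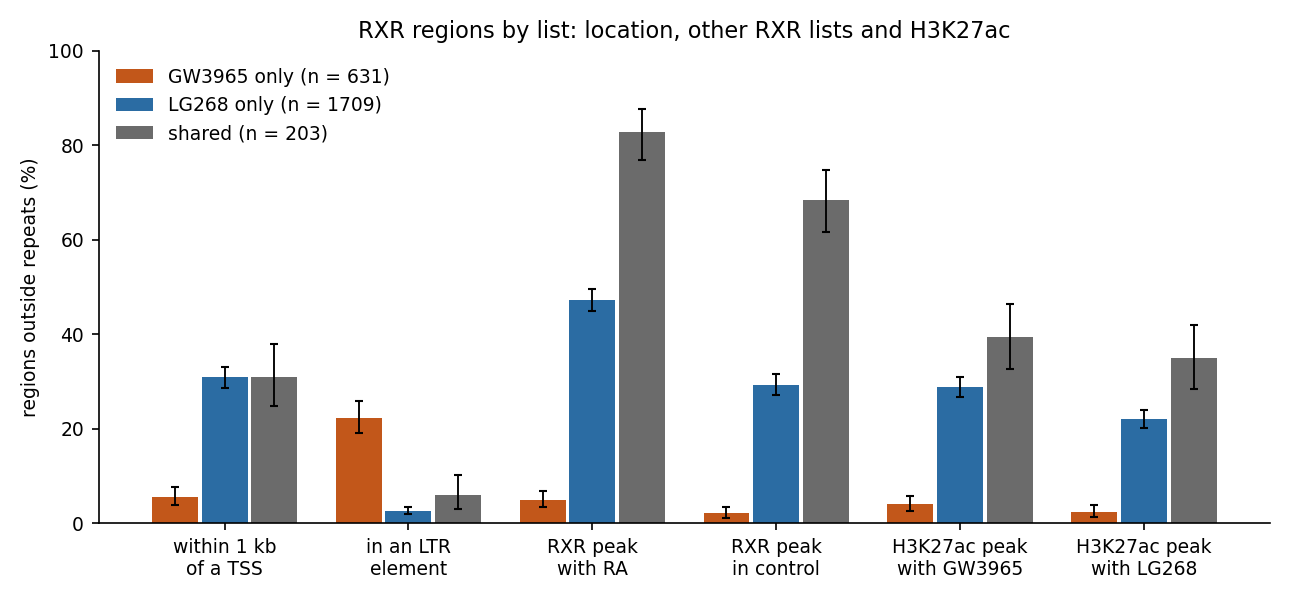
Percentage of RXR regions outside repeats (631 GW3965-only, 1709 LG268-only and 203 shared) that lie within 1 kb of a TSS, lie in an LTR element, or carry an RXR peak with RA or in the control or an H3K27ac peak with GW3965 or LG268. Lines are exact 95% intervals; GW3965-only regions are lowest in every group of bars except LTR elements, where they are highest.

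LTR elements are the promoter and enhancer-bearing ends of endogenous retroviruses, and the annotated LTR class also takes in some internal parts, such as MMERVK9C_I-int. The class held 141 of 642 GW3965-only regions (22.0%, 18.8 to 25.4), 45 of 1793 LG268-only regions (2.51%, 1.84 to 3.34) and 14 of 296 shared regions (4.73%, 2.61 to 7.81). The ERVK family took 99 of the GW3965-only regions, 14 of the LG268-only and 5 of the shared regions. The leading subfamily was RLTR13D6, with 23 GW3965-only regions and no region of another class. RLTR9D had 11 GW3965-only regions and 1 LG268-only region, RLTR9E 9 GW3965-only regions and 1 shared region, and MLTR25A 6 GW3965-only regions and 1 shared region. All elements with a name starting in RLTR9 together had 32 GW3965-only, 1 LG268-only and 1 shared region.

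The LTR regions of the GW3965-only class lay nearly all outside called acetylation, and so did those of the LG268-only class. Of the 141, 1 was in a GW3965 H3K27ac peak and 0 of 141 in an LG268 one, which allows a share of up to 2.13% at that floor (exact upper limit 2.58%). A control RXR peak was present at 1 of the 141 and an RA peak at 6. Of the 45 LG268-only LTR regions, 2 lay in a GW3965 H3K27ac peak and 1 in an LG268 one. Of the 14 shared LTR regions, 4 and 2 did. The promoter and control shares of the GW3965-only class were about as low outside these elements: without LTR regions 35 of 501 lay within 1 kb of a TSS (6.99%) and 16 of 501 had a control peak (3.19%). That alternative was chosen after the data were seen. What sets the LTR share of this 1 library was not tested.

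**Figure D4:**
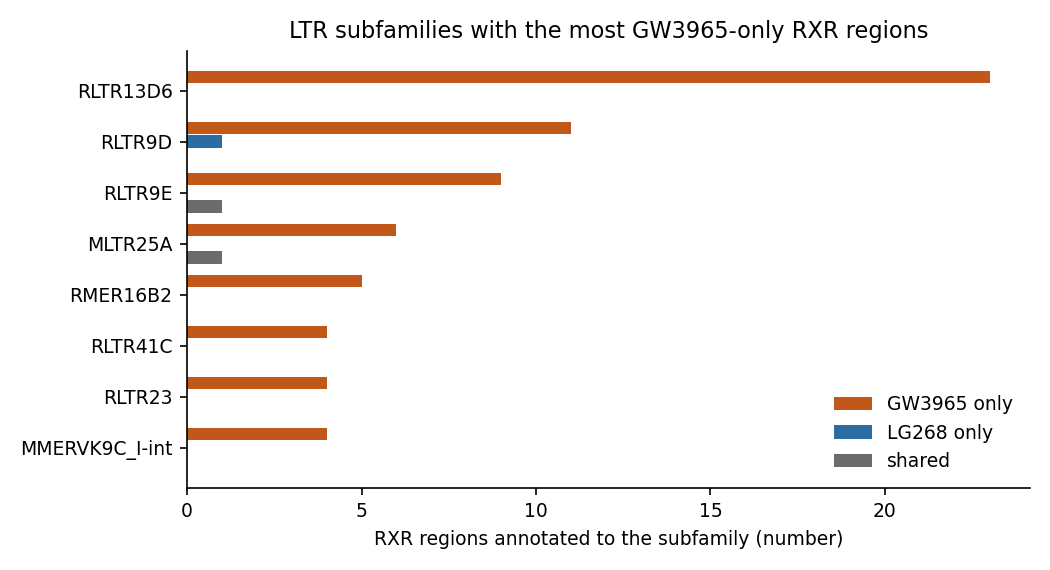
Number of RXR regions annotated to each LTR subfamily (bars: GW3965 only, LG268 only and shared), for the 8 subfamilies with at least 4 GW3965-only regions. RLTR13D6 leads with 23 GW3965-only regions, and the 8 subfamilies together show 1 LG268-only region and 2 shared regions.

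Genes were assigned by the deposited nearest gene, within 100 kb of the TSS. Of the 14490 genes that any peak in the series was assigned to, 5.05% had a GW3965 peak, 10.9% an LG268 peak and 2.07% both, while 10.3% were nearest to a peak with RA and 5.94% to one in the control. With the LG268 list limited to its 940 highest peaks, 5.02% of all genes had an LG268 peak. In the full lists 2.98% had a GW3965 and no LG268 peak, and 8.81% an LG268 and no GW3965 peak. Members of each list are counted among these 14490 genes.

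LXR targets were found with either ligand. Of 21 members, 10 had a GW3965 peak (47.6%, against 5.05% of all genes), 11 an LG268 peak (52.4%, against 10.9%) and 8 both: Abca1, Abcg1, Elovl5, Fasn, Scd1, Scd2, Scd3 and Srebf1. With RA 10 of the 21 had a peak and in the control 11. With GW3965 and not LG268 there were Lpl (lipoprotein lipase) and Mylip (a ubiquitin ligase that degrades the LDL receptor). The Lpl peak, 73625 bp from the TSS, scored 4.36 at rank 782 of 940 and was also called with RA and in the control. The Mylip peak, in intron 2 of 6, scored 12.6 at rank 108 of 940 (chromosome 13, 45391572 to 45391832) and was absent from the RA and control lists. With LG268 and not GW3965 there were Arl4c (a small GTPase), Lpcat3 (a phospholipid-remodelling acyltransferase) and Npc1 (a lysosomal cholesterol transporter), each at its promoter, with scores of 13.3, 11.3 and 6.44. The Arl4c peak was also called in the control, the Lpcat3 peak with RA and in the control, and the Npc1 peak in neither.

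Around Abcg1 and Abca1 the GW3965 list held further sites. Abcg1 had 3 GW3965-only regions between its upstream flank and intron 2, with scores of 9.57, 5.87 and 4.90, beside the shared intron 2 region. Abca1 had a GW3965-only region scored 11.3 in intron 5 of 49 (chromosome 4, 53115950 to 53116187). It also had 2 shared regions, at the promoter and in intron 1, with 11.2 and 9.06 with GW3965 and 31.8 and 15.97 with LG268. Fasn and Srebf1 had 1 LG268-only region each, with scores of 6.13 and 6.72. Of 23 cholesterol synthesis genes under SREBP-2, 1 had a GW3965 peak (Insig1) and 1 an LG268 peak (Cyp51), each 4.35%, against 5.05% and 10.9% of all genes.

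RAR targets were found more often with LG268. Of 26 members, 5 had a GW3965 peak (19.2%, against 5.05% of all genes), 15 an LG268 peak (57.7%, against 10.9%), 20 an RA peak and 11 a control peak. With lists of equal length 5 had a GW3965 peak and 10 an LG268 peak. Both ligands gave a peak at 4, among them Rarb, Cyp26b1 and Dhrs3, a retinal reductase gene. The Dhrs3 peaks did not coincide, as the GW3965 one lay 15788 bp and the LG268 one 5294 bp into the gene. With GW3965 and not LG268 there was Aldh1a2, an enzyme of RA synthesis, with a score of 3.65 at rank 854 of 940. With LG268 and not GW3965 there were 11 genes, among them Cdx1, Cyp26a1, Hoxa2, Hoxa5, Meis2, Nr2f2, Nrip1, Rai1, Rarg and Zfp703. The highest of these peaks was assigned to Hoxa2, a hindbrain patterning gene, with a score of 23.9 at rank 148 of 2089 (chromosome 6, 52175398 to 52175675, 10705 bp upstream). Cdx1, a caudal-type homeobox gene, had 16.4 at rank 266 in intron 1 of 2. Of the 14 LG268-only regions at RAR targets, 10 were found with RA as well and 8 in the control.

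PPAR targets and fatty acid oxidation genes stood above the all-gene share with both ligands. Of 26 members, 7 had a GW3965 peak (26.9%, against 5.05% of all genes), 14 an LG268 peak (53.8%, against 10.9%), 12 an RA peak and 10 a control peak. In the full lists the ratio between the ligands was close to that over all genes. With lists of equal length it was not as close, as 7 had a GW3965 peak and 11 an LG268 peak, against 5.05% and 5.02% of all genes. Both ligands gave a peak at 5: Cpt1a, Slc25a20, Angptl4, Acaa2 and Klf10. The Klf10 peaks did not coincide. With GW3965 and not LG268 there were Plin2, a lipid droplet coat protein gene, and Slc27a1, a fatty acid transporter gene whose peak lay 512 bp upstream of the TSS with a score of 9.18. With LG268 and not GW3965 there were 9 genes, among them Acadl and Acadvl (acyl-CoA dehydrogenases), Acaa1a, Acot1, Acsl1, Pdk4 and Ucp3. Pdk4, a kinase that restrains glucose oxidation, had the highest of these peaks, with a score of 23.4 at 13623 bp upstream (chromosome 6, 5509721 to 5510081) and a second of 5.90 at its promoter. Acadl had 21.3 in intron 1 of 10 (chromosome 1, 66862746 to 66863008). Of the 12 LG268-only regions at members of this list, 9 were found with RA as well and 7 in the control, and the higher Pdk4 region was found in both.

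Of 38 nuclear receptor and coregulator genes, 5 had a GW3965 peak (13.2%, against 5.05% of all genes) and 13 an LG268 peak (34.2%, against 10.9%). With RA 13 had a peak (34.2%, against 10.3%) and in the control 10 (26.3%, against 5.94%). Ncoa3, Nr2c1 and Rarb had both (7.89%, against 2.07% of all genes). Esrrb and Rxra had a GW3965 peak and no LG268 peak (5.26%, against 2.98% of all genes). The Rxra peak lay 32211 bp upstream with a score of 7.69. An LG268 and no GW3965 peak was found at 10 genes (26.3%, against 8.81% of all genes). They included the corepressor Ncor1 and the receptors Rarg, Ppard, Thrb and Nr1d2. The peaks at Rarg, Ppard and Nr1d2 were also called in the control, and those at Ncor1 and Thrb were not.

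Pluripotency genes were found more often with GW3965. Of 27 members, 13 had a GW3965 peak (48.1%, against 5.05% of all genes), 3 an LG268 peak (11.1%, against 10.9%) and 2 both (Tet2 and Gbx2), while 3 were found with RA and 1 in the control. With GW3965 and not LG268 there were Pou5f1 (Oct4), Zfp42 (Rex1), Esrrb, Klf2, Tbx3, Prdm14, Tfcp2l1, Utf1, Fbxo15, Lefty1 and Lefty2, and with LG268 and not GW3965 there was Sox2. Their GW3965 peaks spread over the list, and Zfp42 had the highest (score 22.3, rank 29 of 940). Esrrb had 13.1 at rank 96, Klf2 11.4 at rank 138 in the highest of its 3 regions, Pou5f1 10.7 at rank 160, Lefty1 9.33 at rank 229 and Fbxo15 4.15 at rank 806. The Sox2 peak with LG268 had a score of 3.38 at rank 1936 of 2089.

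These pluripotency regions were mostly distal and not acetylated, as was the GW3965-only class as a whole. Of all GW3965-only regions, 5.45% lay within 1 kb of a TSS and 3.89% in a GW3965 H3K27ac peak. Of the 15 GW3965-only regions at pluripotency genes, 1 lay within 1 kb of a TSS (Fbxo15), 1 in a GW3965 H3K27ac peak (Lefty2) and 0 in an LG268 one. Lefty1 was the 1 region also found with RA, with 0 found in the control. With peaks limited to 10 kb of the TSS the counts were 6 genes for GW3965 and 0 for LG268, and 2.04% and 6.15% of all genes then had a peak. Tet2, a DNA demethylation enzyme gene, carried the 1 shared region of this list, in intron 1 of 10 with scores of 10.9 with GW3965 and 47.2 with LG268 (chromosome 3, 133534102 to 133534435). None of the 15 GW3965-only regions lay in an LTR element.

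Neural progenitor and neuronal genes gave 1 of 21 with GW3965 (Nkx6-1) and 3 of 21 with LG268 (among them Mnx1 and Neurog2). These shares, 4.76% and 14.3%, lay near those of all genes, 5.05% and 10.9%. Endoderm genes gave 0 of 8 with GW3965 and 3 of 8 with LG268 (among them Dab2 and Sox7), 4 of 8 with RA and 2 of 8 in the control. The LG268 share was 37.5%, against 10.9% of all genes, on 8 genes, and the Dab2 peak lies in a telomere-type repeat. Mesoderm genes gave 0 of 4 with both ligands. As a check of the labelled cell type, promoter H3K27ac was read at marker genes. Of 10 ES cell markers, 5 had a peak with GW3965 (Pou5f1, Sox2, Klf4, Zfp42 and Sall4) and 3 with LG268 (Sox2, Klf4 and Sall4), against 66.5% and 56.7% of all 14490 genes. Nanog, Esrrb, Tfcp2l1, Prdm14 and Dppa5a had none in either list. Of 5 neural markers 1 (Pax6) had a peak with GW3965 and 0 with LG268, and endoderm and mesoderm markers had 0 of 4 each with both ligands. Loss of a peak from the shorter LG268 list and loss of acetylation cannot be told apart.

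**Figure D5:**
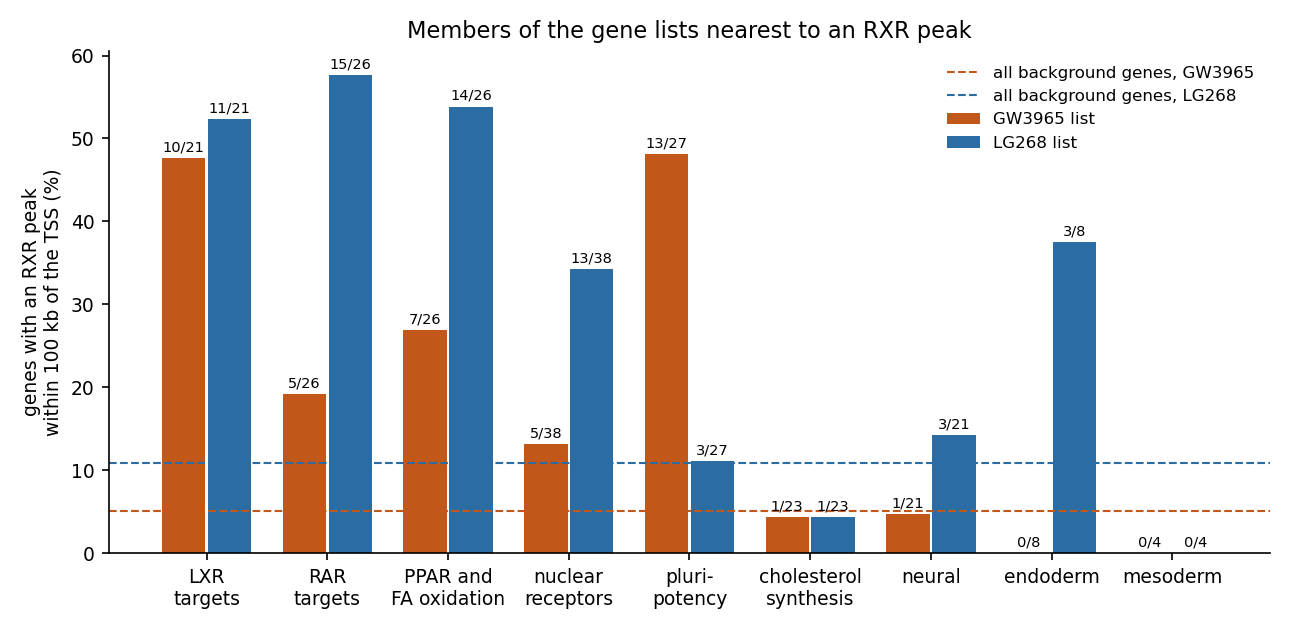
Percentage of the members of each gene list that are nearest gene of an RXR peak within 100 kb of the TSS, with GW3965 (left bar of each pair) and LG268 (right bar); fractions give the genes. Dashed lines mark the share of all 14490 genes, 5.05% for GW3965 and 10.9% for LG268; the LXR list has 10 and 11 of 21, the RAR list 5 and 15 of 26, the PPAR list 7 and 14 of 26, and the pluripotency list 13 and 3 of 27.

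The highest regions of a single list differed in the same way. The 10 highest GW3965-only regions outside repeats were nearest to Asb4, Plxdc2, Apol7a, Zfp42, F5, Jam2, 4931440L10Rik, Fam227b, Mettl20 and Rbm14, with scores of 19.4 to 27.5 and ranks 22 to 43 of 940. None of the 10 had an RA peak or lay in an H3K27ac peak of either ligand, and 1 of 10 (Plxdc2) had a control peak. Asb4 led, between genes at 21216 bp upstream of the TSS (chromosome 6, 5362007 to 5362334). The 10 highest LG268-only regions were nearest to 4732415M23Rik, Atoh8, Mir3970, Capn2, Ankrd28, Tm2d1, Drd3, Pla2g15, 1700096K18Rik and Gm20877, with scores of 25.8 to 35.0 and ranks 84 to 130 of 2089. Of these, 4 lay in an H3K27ac peak of each ligand. Atoh8, a basic helix-loop-helix transcription factor gene, had its peak in intron 2 of 2 (chromosome 6, 72222313 to 72222701). Of the strongest sites of a single list, 9 of 10 GW3965-only ones were thus absent from every other ES list of RXR, while all 10 LG268-only ones were called with RA and in the control.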

How the data were processed

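RXR and H3K27ac peak lists from 8 ES cell libraries and RXR lists from 4 libraries of differentiated cells were used as deposited. The submitters' processing notes name BWA 0.6.0, MACS2 2.0.10 and HOMER 4.2, and both mm9 and mm10 as builds, with no step given for either. Coordinates are on mm10 per the file headers, and each peak carries a peak score given by the authors and a distance to the nearest TSS. How the score was computed, input handling and read depth are not given in the sources used here. Peaks were called per library, with no pooling recorded.

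The lists were loaded in Python 3.11.15 (pandas 2.3.3, numpy 2.4.6, scipy 1.17.1, matplotlib 3.10.9). Peaks overlapping by 1 bp were merged to regions, and a region's score with a ligand is that of its highest peak. With 1 library per ligand no test was run, and intervals are exact binomial. The overlap step was tested on simulated data of the same list lengths, and found 300 of 300 planted shared peaks. Promoter windows (250 bases before to 50 after the TSS, RefSeq, GRCm38.p6) were searched on both strands for direct repeats, a search added after the data were seen. Genes were named if they were list members with a peak, among the 10 highest regions of a class outside repeats, or among the 8 largest rank changes each way. Some list members are counted but not reported here by name. The members and gene lists were chosen with earlier results of these data known. Other overlap rules, list lengths, distances and filters on repeats and LTR elements were tried as alternatives.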

Additional observations from a re-analysis of the deposited data

How the results depend on the processing

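Of 103 recomputed values, 60 stayed within the counting interval of the reported value, or within 1.5 times a count, and 43 moved. Peak centres within 200 bp moved 0 of 2 values and leaving out LTR regions 0 of 9. The GW3965 overlap of 31.7% was 28.5% with 50% reciprocal overlap, 26.2% with the LG268 list limited to its 940 highest peaks, 37.0% in the highest 50% of each list and 23.9% with repeat peaks left out of both lists (25.9% where they were left out of the GW3965 list alone). The LG268 overlap of 14.2% was 26.0%, 16.6% and 10.6% under the last 3 of these. The share placed higher with GW3965 was 18.9% by list percentile. Within 5 kb of a TSS lay 16.7% of GW3965-only, 37.6% of LG268-only and 31.1% of shared regions, and without repeats 31.0% of shared regions lay within 1 kb. Without repeats, shared regions lay in H3K27ac peaks at 39.4% with GW3965 and 35.0% with LG268, and had an RXR peak with RA at 82.8% and in the control at 68.5%. Over 1 kb from a TSS, H3K27ac with GW3965 covered 1.48% of GW3965-only and 12.7% of LG268-only regions, and H3K27ac with LG268 covered 0.494%, 8.06% and 34.8% of the 3 classes. With H3K27ac lists of equal length the GW3965 one covered 23.6% of LG268-only and 43.2% of shared regions. With RXR lists of equal length an RA peak lay at 9.22% of GW3965-only, 73.0% of LG268-only and 94.3% of shared regions, a control peak at 5.76%, 52.4% and 84.4%, and 1 pluripotency gene had an LG268 peak. Within 10 kb, 2 RAR targets and 6 pluripotency genes had a GW3965 peak and 0 pluripotency genes an LG268 peak. Where values of all 3 classes were recomputed, GW3965-only regions stayed lowest. The cause of these moves was not tested. The setting without LTR regions was chosen after the data were seen. No paired analysis was possible because each ligand has 1 library, and depth, which is unknown, limits every count of peaks.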

Other observations

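The shared regions were also found in differentiating cells more often than the regions of a single list. RXR peaks from day 8 or day 16 of neural differentiation, in any of 4 libraries, lay at 26 of 642 GW3965-only regions (4.05%, exact 95% interval 2.66 to 5.88), at 551 of 1793 LG268-only regions (30.7%, 28.6 to 32.9) and at 209 of 296 shared regions (70.6%, 65.1 to 75.7). Outside repeats the shares were 2.69%, 27.7% and 57.6%. Per library and outside repeats, the 2 day 8 libraries covered 14 and 11 of 631 GW3965-only regions, 225 and 445 of 1709 LG268-only regions, and 66 and 107 of 203 shared regions. The 2 day 16 libraries covered 1 and 3, 58 and 46, and 46 and 37 of the same classes.

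Some genes gathered several regions of one class. Abcg1, Klf2 and Tns3 had 3 GW3965-only regions each, with no control peak at those of Abcg1 and Klf2. Among LG268-only regions, Cuedc1 had 7 between 88119359 and 88174040 on chromosome 11, and Gse1, Socs3 and Stox2 had 4 each. Cyp51, a cholesterol synthesis gene, was the nearest gene of 3 LG268-only regions that lie in the same annotated intron, 50906 to 51922 bp from its TSS. The mitochondrial genome held 6 LG268-only regions and 0 of the other classes.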
